A study of Caenorhabditis elegans with 2 samples.

Results

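The vacuolar ATPase is a proton pump that acidifies lysosomes, endosomes and secretory vesicles and also sits in the plasma membrane of some epithelia. It consists of a cytosolic V1 sector, which hydrolyses ATP, and a membrane V0 sector, through which protons pass. In V1 the A and B subunits form the catalytic ring, D and F form the central rotor stalk, E and G form the peripheral stalks, C links those stalks to V0, and H regulates coupling between the sectors. Binding of a transcription factor was examined at the 8 Caenorhabditis elegans genes of the V1 sector, vha-8 to vha-15, out of 19973 protein-coding genes on the nuclear chromosomes. The genes were taken by name, and each was read over its body and 2000 bp on either side. RefSeq product names gave subunit E for vha-8, F for vha-9, G for vha-10, C for vha-11, B for vha-12, A for vha-13, D for vha-14 and H for vha-15, so the sequence annotation carries a V1 subunit name for every member.

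The factor was CEH-28, an NK-2 class homeodomain transcription factor that acts in M4, a pharyngeal motor neuron, mapped by ChIP-seq of an eGFP-tagged protein. Whole L3 larvae of strain OP241, with the genotype unc-119(ed3) III; wgIs241 and males and females pooled, made up the single group, with 2 biological replicates. The wgIs241 insertion carries the tagged gene, and its expression relative to the native gene is not given in the labels. No second group was present, so the members are described beside the share of all protein-coding genes, without a test over the 8 genes. The larvae were immunoprecipitated whole, and the cell type in which a site was bound is therefore not resolved. Depth is unknown because the lists hold peaks and no read counts.

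CEH-28 peaks lay in the promoters of 6 of the 8 V1 genes, namely vha-8, vha-9, vha-11, vha-12, vha-14 and vha-15. A promoter here reaches from 1000 bp upstream to 200 bp downstream of an annotated 5′ end, and a gene is counted where the summit of a peak in the thresholded list falls in it. That list holds 3531 peaks and was deposited as thresholded on agreement between replicates. Its peaks were the 3531 of highest signal in the list from both replicates pooled, so a single peak need not be strong in each replicate. Of all protein-coding genes, 11.2% were counted in the same way. Over the wider window of gene body and 2000 bp on either side, 7 of 8 members held a thresholded summit, against 21.8% of all genes, and vha-10, the gene for stalk subunit G, held none. Median gene length was 1854 bp for V1 and 2027 bp for all genes, so the windows of the members were not longer at the median. The windows together held 9 thresholded sites, of which 6 lay in V1 promoters, 1 in an intron of vha-11, and 2 at the promoters of neighbouring genes.

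**Figure D1:**
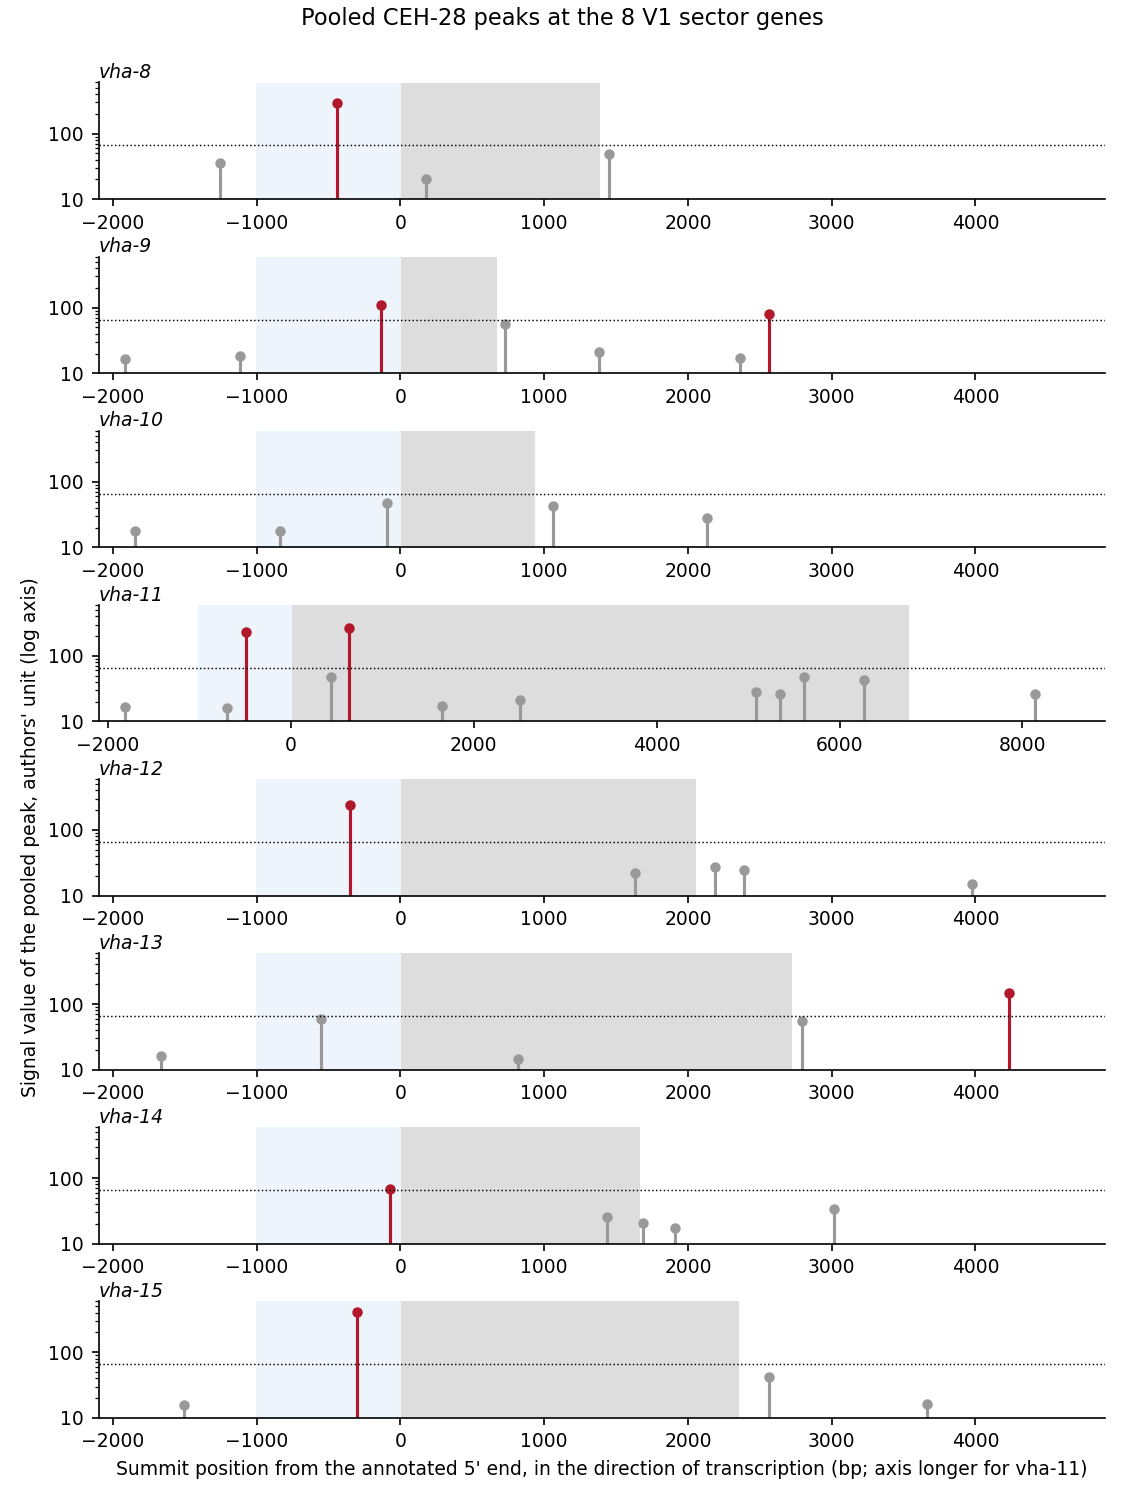
Signal of every pooled peak at each V1 gene (log axis, authors' unit) against the summit's distance from the annotated 5′ end in bp, with thresholded peaks in red, weaker peaks in grey, the gene body shaded grey and the first 1000 bp upstream shaded blue. The dotted line is the lowest thresholded signal, 65.9, and red peaks stand upstream of 6 genes, from 75 bp at vha-14 to 494 bp at vha-11.

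Sequences at 5 of the V1 sites, 4 promoter sites and the intronic site of vha-11, are shown because they differ in the short motifs they carry, and the upstream site of vha-11 is printed as a whole peak where it is described. Each is the 101 bp centred on the summit, on ce11, read 5′ to 3′ on the strand of the V1 gene, and capitals mark every copy, on either strand, of the motifs searched. Earlier results of these data had given the motif AATCGAT, its variant with the letters AATCAAT, and a motif of other letters, CTGCGTC. The sequence typical of NK-2 class proteins was searched as TCAAGTG and, in a second form, as TTAAGTG. The E-box bound by the HLH-30 protein was searched as CACGTG.
vha-15, chrX:2237557-2237657, plus strand: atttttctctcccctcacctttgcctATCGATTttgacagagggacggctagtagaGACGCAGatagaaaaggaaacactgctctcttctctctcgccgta
vha-8, chrIV:6790582-6790682, plus strand: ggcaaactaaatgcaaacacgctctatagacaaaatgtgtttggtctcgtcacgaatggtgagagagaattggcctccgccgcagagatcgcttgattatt
vha-12, chrX:4190693-4190793, plus strand: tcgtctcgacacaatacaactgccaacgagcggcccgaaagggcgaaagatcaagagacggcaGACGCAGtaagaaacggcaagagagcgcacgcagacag
vha-11 intron, chrIV:2313875-2313975, minus strand: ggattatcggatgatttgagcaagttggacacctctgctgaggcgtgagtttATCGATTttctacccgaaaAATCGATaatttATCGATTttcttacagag
vha-9, chrII:10303796-10303896, minus strand: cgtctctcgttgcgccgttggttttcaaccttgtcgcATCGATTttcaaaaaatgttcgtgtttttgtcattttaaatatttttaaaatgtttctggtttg

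AATCGAT lay within 50 bp of the summit at 4 of the 9 sites, at vha-9, at vha-15 and at both vha-11 sites. It was present at 35.3% of all thresholded summits, in 6.94% of windows of the same size 500 bp to either side, and in 2.81% of windows centred 300 bp upstream of protein-coding 5′ ends. CTGCGTC was found at the 2 members on the X chromosome, vha-12 and vha-15, and read GACGCAG on the strand of the gene in both. Over all thresholded summits 8.55% held it, against 0.793% of flanking windows and 1.25% of upstream windows. In vha-15 its centre lay 9 bp from the summit, and that of AATCGAT 21 bp on the other side, so this was the only V1 site with both motifs. In vha-12 the centre of CTGCGTC was 16 bp from the summit.

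The other motifs were found within 50 bp of none of the 9 summits. AATCAAT was present at 24.9% of all thresholded summits, in 7.02% of flanking windows and in 4.65% of upstream windows. The NK-2 sequence TCAAGTG was at 0.793% of summits, 1.19% of flanking windows and 1.37% of upstream windows, and its second form TTAAGTG at 0.51%, 0.694% and 1.05% of the same windows. The E-box was at 3.51% of summits, 2.11% of flanking windows and 1.76% of upstream windows. Of the 9 sites, 4 held none of the motifs searched, among them vha-8, which had the second highest V1 signal. The others were vha-14 and the sites at mdt-22 and cyn-1. The absence of these letters within 50 bp says nothing about other sequences or about binding of the factors they are named for.

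vha-13, which encodes the catalytic ring subunit A, lies on chromosome V from 14351709 to 14354422 on the plus strand and had no thresholded promoter peak. Signal is the peak caller's own value and is compared within a list only, and ranks are set side by side because the 3 relaxed lists hold 30000 peaks each. A weaker pooled peak from 14350956 to 14351355 had its summit 553 bp upstream. Its signal was 59.4 at rank 4083 in the pooled list, 21.1 at rank 8129 in replicate 1 and 40.7 at rank 2643 in replicate 2. Replicate 2 alone would therefore count vha-13, and replicate 1 would not. The thresholded peak in the vha-13 window, with a signal of 146 and ranks of 1188, 1380 and 1225, had its summit 136 bp upstream of cyn-1, a cyclophilin gene, and 4231 bp past the vha-13 5′ end.

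vha-12, which encodes the other ring subunit, B, lies on X from 4191094 to 4193144 on the plus strand. Its pooled peak ran from 4190723 to 4190822 and was 100 bp wide, where that of replicate 1 was 404 bp and that of replicate 2 was 400 bp wide. The summit was 351 bp upstream of the 5′ end, in intergenic sequence that extends 4337 bp to the next protein-coding gene. Signal was 241 in the pooled list, 132 in replicate 1 and 113 in replicate 2, at ranks 586, 636 and 550. No other pooled peak lay in its promoter window.

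vha-14, for rotor subunit D, lies on chromosome III from 9508100 to 9509757 on the plus strand, and its peak was close to the edge of the thresholded list. The peak, from 9507825 to 9508224, had its summit 75 bp upstream of the gene, nearer than at the other 5 members with a thresholded promoter peak. Pooled signal was 68.5, where the lowest in the list was 65.9, and the rank was 3342 of 3531. Replicate 1 ranked the site 2909 with a signal of 42.4, and replicate 2 ranked it 5557 with a signal of 25.4, outside its strongest 3531. With replicate 1 left out, vha-14 was no longer counted among the members with a promoter peak.

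vha-9, for rotor subunit F, lies on chromosome II from 10303050 to 10303713 on the minus strand and had a peak near the median of the thresholded list. The peak ran from 10303646 to 10304045, with the summit 133 bp upstream of the gene in the 425 bp that separate it from gcy-4, a receptor guanylyl cyclase gene. Pooled, replicate 1 and replicate 2 signals were 109.9, 67.5 and 41.8, at ranks 1757, 1536 and 2536. The summits of replicates 1 and 2 were 41 and 66 bp from the pooled one, the largest moves among the V1 promoter sites, where the medians over all thresholded peaks were 8 and 7 bp. A second thresholded peak in the window had a signal of 80.1 in the pooled list, 33.0 in replicate 1 and 42.1 in replicate 2, at ranks 2700, 4099 and 2501. It had its summit in an intron of clpp-1 and 68 bp upstream of mdt-22, a Mediator subunit gene, and 2565 bp past the vha-9 5′ end.

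vha-8, which encodes peripheral stalk subunit E, lies on chromosome IV from 6791074 to 6792455 on the plus strand. Its peak, from 6790531 to 6790774, had a pooled signal of 292 at rank 441, and its summit was 442 bp upstream of vha-8. Replicate 1 gave a signal of 147 at rank 550 and replicate 2 a signal of 146 at rank 340, with the summit moved by 2 bp and 0 bp from the pooled position. The same summit lay 144 bp upstream of the nearest 5′ end of C17H12.2, a gene on the opposite strand that lies 585 bp from vha-8. This was the only one of the 6 promoter sites that also fell in the promoter of another protein-coding gene, and with each summit given to its nearest 5′ end it counted for C17H12.2.

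vha-10, for peripheral stalk subunit G, lies on chromosome I from 5609341 to 5610270 on the minus strand and had no thresholded peak in its window. The pooled peak nearest the start had its summit 92 bp upstream, in the 103 bp between this gene and trpp-8. Its signal was 47.5 at rank 5614 in the pooled list, 38.6 at rank 3302 in replicate 1 and 9.4 at rank 25881 in replicate 2. The replicates thus placed this site far apart, inside the strongest 3531 of replicate 1 and near the end of the list of replicate 2. A copy of AATCAAT had its centre 9 bp from this summit. Replicate 2 had stronger peaks elsewhere in the promoter window, all outside its strongest 3531. A peak that overlapped the pooled one, with its summit 153 bp past the 5′ end, had a signal of 14.4 at rank 13718. The strongest, 642 bp upstream, had a signal of 18.6 at rank 9168. Leaving replicate 2 out added vha-10 to the members counted by promoter.

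vha-11, which encodes the linking subunit C, lies on chromosome IV from 2307815 to 2314567 on the minus strand and was the only member with 2 sites among the 3531 strongest of each replicate. Its upstream peak, from 2314919 to 2315215, had its summit 494 bp before the 5′ end, within the 892 bp that separate vha-11 from vha-3, a V0 gene on the same strand. Signal there was 228 in the pooled list, 165 in replicate 1 and 70.0 in replicate 2, at ranks 633, 460 and 1133. This peak was counted as a promoter peak by the annotated 5′ end of vha-11. The lists do not show whether transcription of vha-11 begins near that end or upstream of vha-3. The second peak, from 2313781 to 2314066, had its summit 642 bp into the gene, in intron 2, and pooled, replicate 1 and replicate 2 signals of 262, 157 and 105. Its ranks were 519, 505 and 630. The intronic site was thus the higher of the pair in the pooled list and in replicate 2, and the upstream site in replicate 1.

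The whole upstream peak of vha-11, 297 bp on ce11, is printed to show the copies of AATCGAT in it, again in capitals and on the strand of the gene.
vha-11 upstream peak, chrIV:2314919-2315215, minus strand: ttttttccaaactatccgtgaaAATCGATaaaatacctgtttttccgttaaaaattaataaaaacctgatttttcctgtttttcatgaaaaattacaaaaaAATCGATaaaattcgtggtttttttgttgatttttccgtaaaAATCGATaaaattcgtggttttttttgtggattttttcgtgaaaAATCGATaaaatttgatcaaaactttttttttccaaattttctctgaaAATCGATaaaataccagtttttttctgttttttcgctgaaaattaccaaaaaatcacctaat

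The 5 copies in this interval ran in the same direction, and each was followed by the letters aaaat. Some copies shared the longer run aaaattcgtgg, so the sequence around the motif repeated too. Within 200 bp of the summit, a distance chosen after the values were seen, there were 6 copies, and neighbouring copies began 42, 44, 48, 79 and 103 bp apart. At the intronic site 4 copies lay within the same distance of the summit, 3 of them inside the intron itself. At least 4 copies were found at 11.6% of all thresholded summits and at least 5 at 8.92%. The other V1 sites had 1 copy at vha-9 and at vha-15 and 0 at the remaining 5.

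vha-15, the gene for regulatory subunit H, lies on X from 2237911 to 2240255 on the plus strand and had the strongest V1 peak. The peak ran from 2237464 to 2237726, with the summit in intergenic sequence 304 bp upstream of the 5′ end. Signal was 405 in the pooled list, 207 in replicate 1 and 197 in replicate 2. Its rank by signal was 261 in the pooled list, 340 in replicate 1 and 197 in replicate 2, out of 30000 peaks in each. The site stood at 1.13% of the way down the list in replicate 1 and 0.657% in replicate 2.

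**Figure D2:**
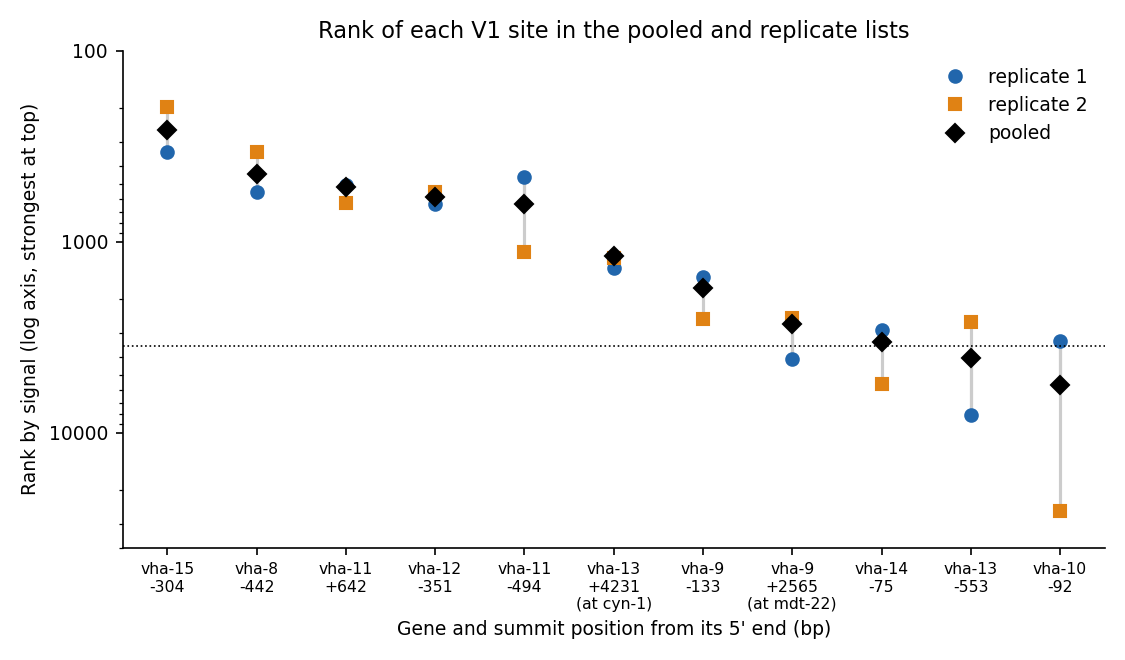
Rank by signal (log axis, strongest at the top) of each V1 site in the pooled list, replicate 1 and replicate 2, with the summit's distance from the member's 5′ end in bp below the gene name. The dotted line marks rank 3531, and the replicates lie on opposite sides of it for vha-9 at 2565 bp, vha-14, vha-13 at 553 bp upstream and vha-10.

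All 8 members had some pooled relaxed summit in the promoter window, where 41.6% of all protein-coding genes did. The pooled relaxed list was deposited as peaks and background, so a summit in it need not be a bound site. A strong summit of each replicate, meaning one among its 3531 highest, lay in the promoter of 5 members, vha-8, vha-9, vha-11, vha-12 and vha-15, against 8.42% of all genes. Over the wider window a strong peak of each replicate overlapped 6 members, the same 5 and vha-13 through the cyn-1 site, against 17.7% of all genes. By single site, 7 of the 9 were among the strongest of each replicate, as were 70.7% of all thresholded peaks.

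The V1 promoter peaks were spread over the range of bound promoters, with 4 of 6 above its upper quartile. Over the 2240 genes with a thresholded promoter summit the median signal was 110.0 and the upper quartile 177.7. vha-15 ranked 106 among these genes, vha-8 ranked 212, vha-12 ranked 314 and vha-11 ranked 337. vha-9 stood at rank 1125, in the middle, and vha-14 at rank 2136, near the end. The 6 summits were 75 to 494 bp upstream, with a median of 327.5 bp, where the median over all these genes was 279.5 bp upstream and the quartiles were 523 and 153 bp. Annotated 5′ ends of the members lay at most 33 bp before the start codon, and since many worm transcripts are trans-spliced, transcription may begin farther upstream than these ends.

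**Figure D3:**
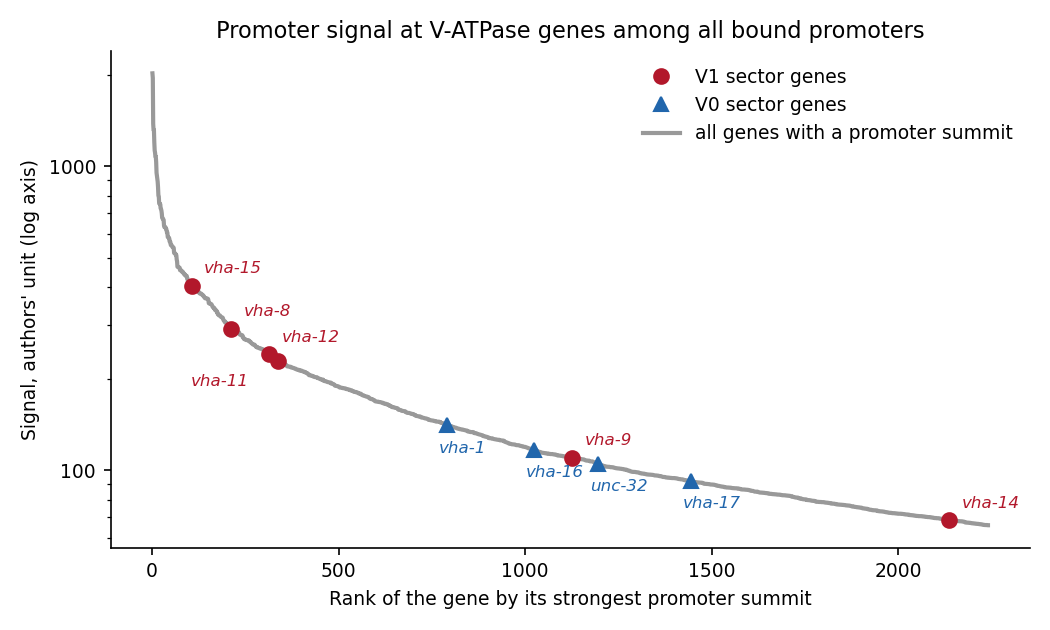
Signal of the strongest promoter summit (log axis, authors' unit) against the rank of the gene, for V1 genes (red circles), V0 genes (blue triangles) and all 2240 genes with a thresholded promoter summit (grey line). The V1 genes vha-15, vha-8, vha-12 and vha-11 stand at ranks 106 to 337, and the V0 genes at ranks 791 to 1444.

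The V1 counts were set beside those of the V0 sector, the membrane part of the same pump. A thresholded promoter summit was found at 6 of 8 V1 genes and at 4 of 12 V0 genes, in V0 at vha-1 (signal 140.3), vha-16 (signal 116), unc-32 (signal 105) and vha-17 (signal 91.9). The median signal was 234.5 over the 6 V1 genes and 110.6 over the 4 V0 genes. By promoter signal, none of these 4 V0 genes exceeded the upper quartile of bound genes. The wider window of unc-32 also held a thresholded site with a signal of 362.1, outside its promoter window. Over the wider window the count was 7 of 8 in V1 and 7 of 12 in V0, and both sites in the window of vha-3 were those of vha-11. The strongest site in the window of vha-2 was the vha-1 promoter site, with a signal of 140.3. vha-2 follows vha-1 on the same strand and was not counted by promoter. A strong peak of each replicate overlapped the wider window at 6 of 8 V1 genes and at 8 of 12 V0 genes. Some pooled relaxed promoter summit was found at 8 of 8 V1 genes and at 10 of 12 V0 genes. The difference between sectors was not tested. Of the genes fixed as related, the V1 paralogs vha-18 and spe-5 had no thresholded site. hlh-30, the TFEB homologue that activates lysosomal genes, had a promoter summit with a signal of 111 at 39 bp upstream, and rbc-1, a rabconnectin gene, one of 72.5 at 868 bp upstream. nhr-31, a nuclear receptor gene known to promote V-ATPase expression in the excretory cell, had 1 thresholded site of 67.3 outside its promoter window.

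Most V1 genes also had a weak entry of the pooled relaxed list, which includes background, at their 3′ end. The pattern was noticed after the values were seen. A pooled relaxed summit lay within 250 bp of the annotated 3′ end at 7 of 8 members, all but vha-11, at 8 of 12 V0 genes, and at 23.3% of all protein-coding genes. Among the genes with a thresholded promoter summit the share was 42.9%, and 5 of the 6 such members had one. Each replicate had a relaxed summit there at 6 of 8 V1 genes, 5 of 12 V0 genes and 13.5% of all genes. A thresholded summit lay there at none of the 8 V1 genes, 1 of 12 V0 genes (vha-2) and 3.02% of all genes. At 3 of the 7 members, vha-9, vha-10 and vha-13, the strongest such summit was also in the promoter window of a neighbouring gene.

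The signals at these 3′ ends were low, and whether they mark binding or background was not tested. The −log10 q-value of the strongest pooled summit there ran from 0.441 at vha-14 and 0.5 at vha-12 to 2.7 at vha-9. The maximum in the thresholded list was 3.78. At vha-9 the summit was 61 bp past the end, with a pooled signal of 57.3 at rank 4290 and replicate ranks of 4626 and 3239, and it was also 147 bp upstream of clpp-1, a mitochondrial protease gene. At vha-13 the summit was 81 bp past the end, with a signal of 54.5 at rank 4630, and lay in coding sequence of the overlapping gene Y49A3A.3, 93 bp past its 5′ end. At vha-8 the summit was 68 bp past the end, with a signal of 49.4 at rank 5308 and replicate ranks of 6677 and 4968, and no other protein-coding 5′ end was nearer than its own. vha-10 had a signal of 43.0 at 132 bp past the end, 368 bp upstream of ubl-5, and vha-15 one of 41.5 at 222 bp, and in both the replicates differed. At vha-10 replicate 1 ranked the site 2993, and the only summit of replicate 2 in the window, 248 bp inside the gene, ranked 15976. At vha-15 the replicate ranks were 3668 and 29858. At vha-12 and vha-14 the strongest such peak had a signal of 27.2 and 26.0. At vha-12 replicate 1 had a summit within 250 bp of the 3′ end and replicate 2 had none. A replicate 2 peak overlapping the pooled one had its summit 346 bp past the end, with a signal of 14.7 at rank 13335. Counting the whole windows of gene body and 2000 bp on either side, the 8 genes held 47 pooled peaks, of which 38 were below the threshold with signals from 14.7 to 59.4, and 17 of these 38 had a summit within 200 bp in each replicate.

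**Figure D4:**
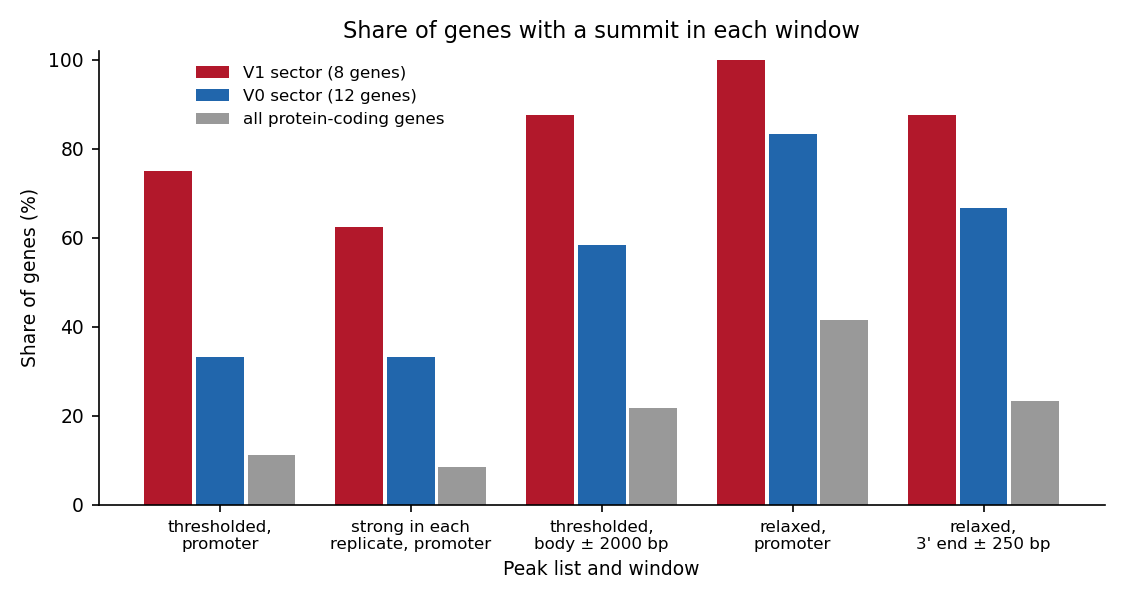
Share of genes in percent with a summit in each window for the V1 sector (8 genes), the V0 sector (12 genes) and all protein-coding genes, by peak list. V1 shares run from 62.5% to 100%, and those of all genes from 8.42% to 41.6%.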

How the data were processed

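The deposited files were a relaxed peak list for each replicate, a relaxed list from both replicates pooled, and a list thresholded on replicate agreement (irreproducible discovery rate). The relaxed lists, per the file records deposited with them, were made from the alignments and from the file that also served for the control-normalized signal, and the thresholded list from the 3 relaxed lists. The signal and the −log10 q-value of each peak are the authors' deposited values on ce11. The −log10 q-value was at its maximum of 3.78 in 2994 of 3531 thresholded peaks, so ranks used signal. No source used here names the peak caller or the aligner, and lists on ce10 were not used. Relaxed lists held 30000 peaks each, and the pooled one is labelled as peaks and background, the input for the comparison of replicates. In the replicate 2 list 1 summit past the end of its interval was set to the last base.

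Genes came from Ensembl release 115 (WBcel235, the assembly of ce11), with 5′ ends of protein-coding transcripts, and sequences and product names from RefSeq on that assembly. A site was matched between lists where summits lay within 200 bp. The members, gene lists, motifs and windows were chosen with earlier results of these data known. Named genes were all members, protein-coding genes whose promoter held, or whose 5′ end or body was closest to, a thresholded summit in a member window, and V0 and related genes with a thresholded promoter summit. Other genes, named for their position or for a weak or absent peak, were picked with their values in view. The code that counts summits in windows was checked with peaks planted at known places, which is no test of the members. Alternatives were other promoter and gene windows, stricter thresholds, each replicate alone, other overlap rules and nearest 5′ ends. Python 3.11.15, numpy 2.4.6 and pandas 2.3.3 were used.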

Additional observations from a re-analysis of the deposited data

How the results depend on the processing

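Shares in parentheses are those of all protein-coding genes at the same setting. The count of 6 V1 genes with a thresholded promoter summit (11.2%) ranged from 4 to 7 over 8 alternatives. It was 4 with peaks in the upper 25% by signal (2.6%), 5 with peaks at or above the median (5.66%) and 5 with summits given to the nearest 5′ end (13.5%). Without replicate 1 it was 6 (10.9%), with vha-13 in and vha-14 out, and without replicate 2 it was 7 (between 10.9% and 11.2%), with vha-10 in. The count of 7 over the gene body and 2000 bp on either side (21.8%) fell to 1, vha-11, in the gene body alone (5.43%) and to 4 with the upper 25% by signal (5.79%). It was 6 without replicate 1 (21.5%) and 8 without replicate 2 (21.6%). The count of 6 with a strong peak of each replicate (17.7%) was 8 with the strongest 10000 peaks of each (37.0%). AATCGAT or AATCAAT was at 3 of 6 promoter summits with windows of 25, 50 and 100 bp on each side, where 35.8%, 47.4% and 55.3% of all thresholded summits held either. No paired analysis was possible because there was 1 group. The depth behind the weak sites is unknown, and 2 replicates give no error for a single site.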

Other observations

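The vha-11 intron under the second peak is short and holds several copies of the motif that was frequent at CEH-28 summits. Intron 2 runs on chromosome IV from 2313877 to 2313931 and is 55 bp long, and 3 copies of AATCGAT lie in it. Of 47515 introns of protein-coding transcripts with this length or less, 528 held at least 1 copy (1.11%) and 5 held 3 or more, that of vha-11 among them. The search was made after the site had been seen. It counts letters and does not show that the copies are bound.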
